A study of Homo sapiens with 12 samples.

Results

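The aldehyde dehydrogenases (ALDH) described here are 10 genes, ALDH2, ALDH1B1, ALDH3A2, ALDH3B1, ALDH4A1, ALDH5A1, ALDH6A1, ALDH7A1, ALDH9A1 and ALDH16A1, chosen by name from a table of 14866 genes. RNA was sequenced from SHI-1 cells, an MLL-AF6+ acute myeloid leukemia line. Cells received vehicle (DMSO), 0.3 µM disulfiram (DSF) given with 1 µM copper (Cu), 5 µM niclosamide (NSM), or all of these (DSF+NSM) for 16 h, with 3 libraries from independent experiments in each group. It was not stated if Cu was also added to the DMSO and NSM cultures. All cells came from this single line, so the groups hold no other genetic background. Of the 10 genes, 9 were expressed, meaning that 3 or more libraries reached a normalised read count of 10, and ALDH7A1 was not.

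ALDH enzymes oxidise aldehydes to carboxylic acids with NAD(P)+ as the electron acceptor, and most do so through a cysteine in the active site. Metabolites of DSF modify this cysteine, and the resulting block of acetaldehyde clearance is the basis of its long use against alcohol dependence. That action is on the enzyme, whereas the data here are levels of mRNA. The family includes enzymes for acetaldehyde, for aldehydes from fats and lipid peroxidation, and for semialdehydes that arise when amino acids are broken down.

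ALDH1B1 and ALDH3A2 were the members called lower under DSF, NSM and DSF+NSM alike by the test described below, so the sequences just upstream of these genes are shown. Both DSF calls were lost when certain single libraries were left out. In those fits the share of all genes called for DSF also fell, from 17.8% to between 6.77% and 15.8%. All treated libraries of ALDH4A1 were also below its DMSO libraries, but its DSF change was not called. ALDH1B1 lies at chr9:38392702-38398661 on the plus strand (GRCh38) and has 2 exons in its canonical transcript. ALDH3A2 lies at chr17:19648136-19685760 on the plus strand and has 10 exons. The lines below give the 250 bases before each transcription start from RefSeq (GRCh38.p14, 5′ to 3′, plus strand), at chr9:38392452-38392701 for ALDH1B1 and chr17:19647886-19648135 for ALDH3A2. Capitals mark matches on either strand to the GC box (GGGCGG) or to the CCAAT box, which reads ATTGG when it lies on the opposite strand.
ALDH1B1: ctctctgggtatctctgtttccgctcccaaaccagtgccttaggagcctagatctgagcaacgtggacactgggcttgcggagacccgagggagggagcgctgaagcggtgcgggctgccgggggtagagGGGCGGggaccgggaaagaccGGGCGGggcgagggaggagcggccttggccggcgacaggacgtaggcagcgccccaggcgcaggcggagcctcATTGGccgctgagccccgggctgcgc
ALDH3A2: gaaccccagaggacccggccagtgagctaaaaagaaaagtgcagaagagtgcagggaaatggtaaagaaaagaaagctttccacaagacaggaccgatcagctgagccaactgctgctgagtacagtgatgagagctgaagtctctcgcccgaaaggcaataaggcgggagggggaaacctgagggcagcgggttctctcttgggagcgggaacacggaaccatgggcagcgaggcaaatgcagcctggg
The ALDH1B1 window had a GC content of 70.4%, with a GC box 120 and 99 bases before the start and a CCAAT box 26 bases before it. The ALDH3A2 window had a GC content of 55.6% and held none of the 8 motifs searched. RefSeq had 2 entries for ALDH3A2, and only the one nearest the GENCODE gene start is described. Over 35116 RefSeq windows of this length the median GC content was 58.0%. A GC box was present in 42.6% of them and a CCAAT box in 32.0%. The other motifs searched on both strands were CACGTG (E-box, 6.34% of windows), TGACNNNGC (antioxidant response element core, 10.9%), TATAAA (10.7%), TGATGNAA (ATF4-CEBP composite, 3.14%), GAANNTTC (heat shock element core, 5.78%) and TGCGCNC (metal response element core, 16.8%). A match is a description of the letters and not of factor binding. RefSeq windows were matched for 8 of the 10 genes, and none was matched for ALDH2 or ALDH16A1.

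The lowest values rose in constant steps, which put the depth at an estimated 10.2 M to 19.0 M reads per library. NSM replicate 3 stood apart, with a Spearman correlation to the other NSM libraries of 0.939 and 0.950, against 0.980 to 0.996 within the other groups and 0.994 between NSM replicates 1 and 2. Results that change without it are given with and without it. The sum of normalised counts was 14.0 M to 14.4 M in DMSO and 22.7 M to 25.6 M in DSF+NSM, so scaling matters for the combination. With equal sums, the all-gene median log2 fold change against DMSO was −0.05 in the DSF group, −0.25 under NSM and −0.75 under the combination. Higher calls then made up 49.3% of calls instead of 66.6% for DSF, 32.9% instead of 51.7% for NSM and 16.7% instead of 53.6% for DSF+NSM. All 11 myeloid markers examined were expressed, and their summed level was 84193 to 95198 under DMSO, 64794 to 71424 under DSF, 40110 to 49839 under NSM and 43083 to 44847 under DSF+NSM. MPO, the myeloperoxidase of granule precursors, made up most of the DMSO sum and fell from 58058 ± 4281 to 31892 ± 4108 with DSF, whereas 9 of the 11 markers had a log2 fold change above 0 with DSF and the list median was 0.20. The monocyte receptor CD14 rose with DSF from 59.6 ± 5.46 to 389 ± 59.6 and the integrin ITGAM from 550 ± 33.8 to 1549 ± 240, and MPO was the marker called lower. With NSM 4 markers were called higher and 6 lower (median −0.34), and with DSF+NSM 2 higher and 4 lower (median −0.69). The called share of the 11 markers was 27.3% with DSF, 90.9% with NSM and 54.5% with DSF+NSM. Of all tested genes, 17.8%, 49.1% and 52.8% were called. Markers of other cell types were low. The summed level of T cell markers was 75.7 to 82.7 in DMSO, 89.5 to 99.6 in DSF, 111 to 169 in NSM and 137 to 185 in DSF+NSM. The T cell marker tested, CD3E, was called higher with NSM (1.00 on the log2 scale) and DSF+NSM (1.16), comparisons in which ALDH2 rose too. The DSF+NSM call of CD3E was lost under equal sums (0.39, limma adjusted p = 0.0879). The T cell marker CD3D did not reach the expression threshold and went the other way. It stood at 7.10 ± 1.52 in DMSO, 1.33 ± 1.23 in NSM and 3.25 ± 2.89 in DSF+NSM. Summed levels ranged from 13.6 to 168 for B cell markers (MS4A1 at 0 throughout) and 7.47 to 134 for the only stromal marker measured, COL1A1, which rose in DSF+NSM by 2.12 on the log2 scale. The part of these markers in the ALDH results was not tested. In bulk RNA, fewer cells of a type and less RNA per cell cannot be told apart.

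In DMSO the most abundant members per kb of canonical transcript were ALDH3B1, ALDH3A2, ALDH9A1, ALDH1B1 and ALDH16A1, and the classical acetaldehyde enzyme ALDH2 was near the bottom. ALDH3B1 stood at 397 ± 36.1 normalised counts per kb (SD, n = 3) and ALDH3A2 at 305 ± 9.40. ALDH9A1 (280 ± 13.1), ALDH1B1 (266 ± 10.6) and ALDH16A1 (265 ± 6.13) had overlapping library ranges, so these neighbours did not differ beyond their spread. The middle of the order was held by ALDH5A1 (120 ± 12.7), ALDH4A1 (85.6 ± 6.99) and ALDH6A1 (39.7 ± 3.88), whose ranges did not overlap. ALDH2 stood at 3.14 ± 0.507 per kb, over a long canonical transcript of 9561 bases. Division by the longest transcript instead put ALDH3B1 at 190 per kb and in place 5, with ALDH9A1 at the top, and left ALDH5A1 and all lower members in their places. ALDH1B1 moved most in this order, from place 4 in DMSO to place 5 in DSF, place 6 in NSM (48.7 ± 11.2 per kb) and place 8 in DSF+NSM (18.0 ± 3.06 per kb). ALDH2 was in place 9 and ALDH7A1 in place 10 in every group.

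**Figure D1:**
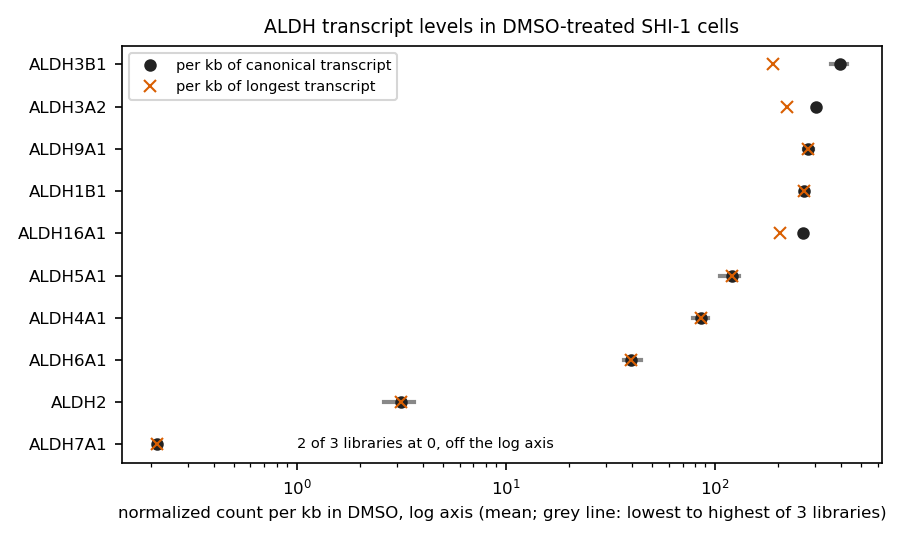
Level of each ALDH gene in DMSO-treated SHI-1 cells, in normalised counts per kb on a log axis. Dots are means over 3 libraries per kb of canonical transcript, grey lines run from the lowest to the highest library, and crosses use the longest transcript. ALDH3B1 is highest at 397 per kb and ALDH2 stands at 3.14, and ALDH7A1 was at 0 in 2 of 3 libraries.

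Together the 9 expressed members took 0.0393% to 0.0412% of all normalised counts in DMSO libraries. With DSF the share was 0.0358% to 0.0364%, with NSM 0.0211% to 0.0295%, and with DSF+NSM 0.0133% to 0.0144%. The group ranges did not overlap, and the lowest NSM share belonged to NSM replicate 3. The denominator of this share also rose in every treatment, to 14.9 M to 15.3 M in DSF, 16.5 M to 17.5 M in NSM and 22.7 M to 25.6 M in DSF+NSM. The summed level of the 9 members was 5487 to 5864 in DMSO and 5422 to 5575 in DSF, so these groups overlapped in level and not in share. It was 3655 to 4857 in NSM and 3260 to 3549 in DSF+NSM, both below DMSO.

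The comparisons below use limma across all 13502 tested genes with Benjamini-Hochberg adjustment, and a gene is called at an adjusted p under 0.05. The 3 treatments share the DMSO libraries, so their values are given side by side. With DSF, 2 of the 9 members were called, both lower, against 17.8% of all tested genes called (5.95% lower). With NSM, 2 were higher and 4 lower, against 49.1% of all genes (25.4% higher and 23.7% lower). With DSF+NSM, 1 was higher and 4 lower, against 52.8% of all genes (28.3% higher and 24.5% lower). The members' share was close to that of all genes for DSF (22.2%) and DSF+NSM (55.6%), and above it for NSM (66.7%). The median log2 fold change of the 9 members was −0.10 under DSF, −0.64 under NSM and −0.41 under DSF+NSM, where the medians of all tested genes were 0.05, 0.01 and 0.03. Leaving out NSM replicate 3, the member counts were 3, 7 and 7, and the background was 41.2%, 59.9% and 67.8%. Under equal sums, the DSF+NSM split became 0 higher and 8 lower, where 67.5% of all genes were called and 16.7% of these calls were higher. The DSF+NSM changes of ALDH3A2, ALDH4A1 and ALDH5A1 were then −2.01, −1.84 and −2.01 on the log2 scale, beside the all-gene median of −0.75.

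**Figure D2:**
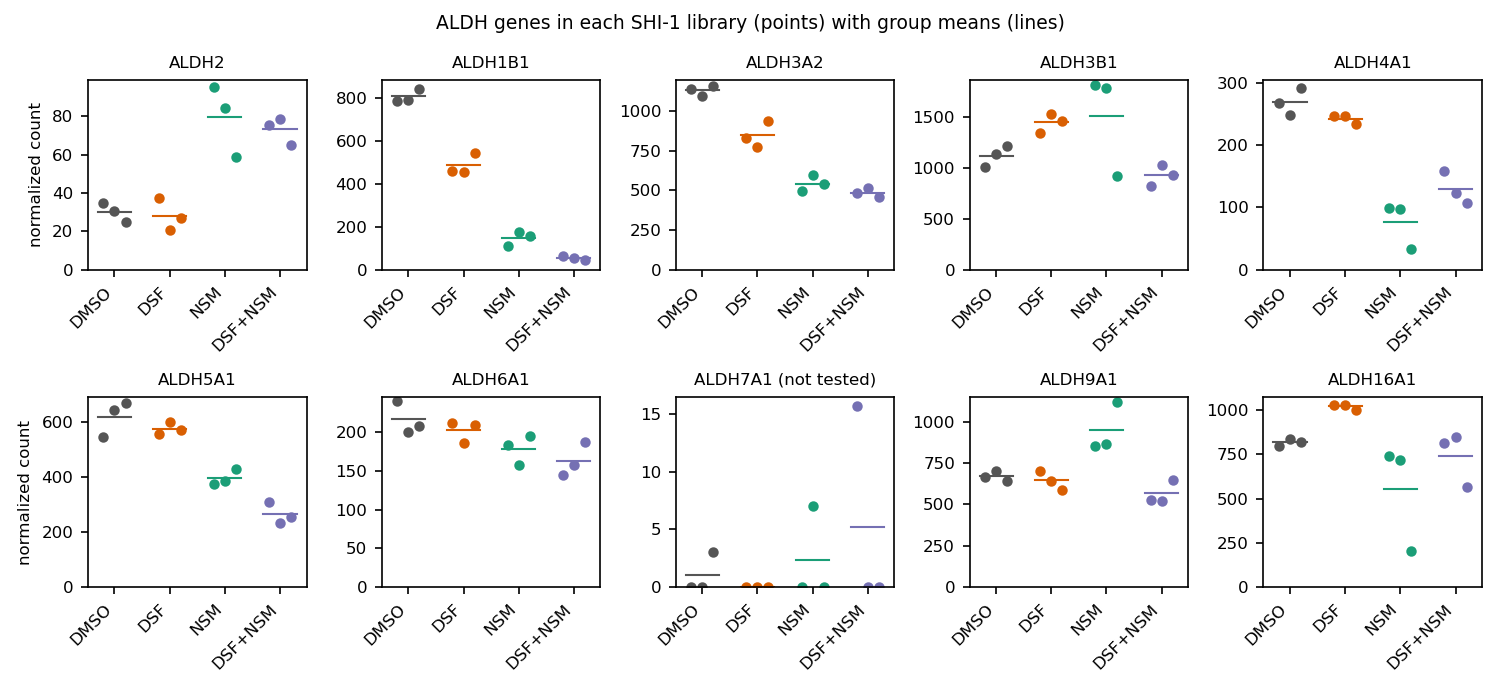
Normalised read count of the 10 ALDH genes in each of the 12 libraries. Points are libraries in replicate order, lines are group means, and every panel has its own axis starting at 0. ALDH1B1 steps down from 806 in DMSO to 54.6 in DSF+NSM, ALDH2 is higher in the 6 libraries with NSM, and NSM replicate 3 is low for ALDH3B1, ALDH4A1 and ALDH16A1.

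ALDH2 and ALDH1B1 are closely related mitochondrial enzymes that oxidise acetaldehyde, and their mRNAs moved in opposite directions with NSM. ALDH2, at chr12:111766887-111817532 on the plus strand, is the main enzyme of acetaldehyde clearance after ethanol intake. Its normalised counts were 34.7, 30.4 and 25.0 in DMSO, 37.4, 20.5 and 26.7 in DSF, 95.3, 84.5 and 58.9 in NSM, and 75.5, 78.7 and 65.3 in DSF+NSM. Every library with NSM was above every library without it, and the DSF libraries overlapped the DMSO libraries. NSM raised ALDH2 from 30.0 ± 4.84 to 79.6 ± 18.7 (SD, n = 3), a log2 fold change of 1.36 (SE 0.27, limma adjusted p = 0.00125). With DSF+NSM the mean was 73.2 ± 7.01 and the log2 fold change 1.27 (adjusted p = 0.00174), and DSF+NSM was also above DSF by 1.38 (adjusted p = 0.00141). DSF alone did not pass the test, with a log2 fold change of −0.11 and a 95% interval of −0.70 to 0.47. These levels rest on 20.6 to 97.1 read equivalents per library. Under equal sums the ALDH2 change with DSF+NSM was 0.50 (adjusted p = 0.121), where the median of all genes was −0.75, and the change with NSM remained called at 1.10 (adjusted p = 0.00512). A GENCODE gene model without a symbol overlaps 680 exon bases of ALDH2 in the same orientation. Reads there cannot be told apart, and it is not known if this model was in the annotation used for counting.

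ALDH1B1 fell in all 3 treatments, and in DSF+NSM it was the most strongly lowered member. Its counts were 786, 790 and 843 in DMSO, 462, 453 and 545 in DSF, 110, 176 and 156 in NSM, and 64.8, 52.5 and 46.6 in DSF+NSM. The 4 groups did not overlap anywhere, in the order DMSO, DSF, NSM and DSF+NSM. The mean of 806 ± 32.1 in DMSO became 486 ± 51.0 with DSF, 147 ± 34.0 with NSM and 54.6 ± 9.26 with the combination, which was 14.8-fold lower than DMSO. Its log2 fold change was −2.47 with NSM (SE 0.19, limma adjusted p = 1.42e-06) and −3.87 with DSF+NSM (adjusted p = 2.1e-08). DSF+NSM differed from NSM alone by −1.40 (adjusted p = 0.000159) and from DSF alone by −3.14 (adjusted p = 3.87e-07). The DSF change of −0.73 was called with all libraries (adjusted p = 0.0225). It lost its call when DMSO replicate 1, 2 or 3 or DSF replicate 1 or 2 was left out, with adjusted p from 0.0701 to 0.101. The ALDH1B1 calls for DSF (adjusted p = 0.00310), NSM and DSF+NSM remained without NSM replicate 3. ALDH1B1 ranged from 21 to 1045 read equivalents per library.

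ALDH3A2 and ALDH3B1 act on aldehydes derived from lipids, and ALDH3A2 was lower in every treatment while ALDH3B1 was not. ALDH3A2, the fatty aldehyde dehydrogenase of the endoplasmic reticulum, had counts of 1139, 1092 and 1159 in DMSO, 830, 774 and 938 in DSF, 493, 593 and 539 in NSM, and 482, 512 and 455 in DSF+NSM. All treated libraries were below all DMSO libraries, and the NSM and DSF+NSM libraries overlapped. Means were 1130 ± 34.8, 847 ± 83.2, 542 ± 50.4 and 483 ± 28.6 in that order of groups. NSM changed ALDH3A2 by −1.06 on the log2 scale (SE 0.13, limma adjusted p = 3.08e-05) and DSF+NSM by −1.23 (adjusted p = 6.76e-06). DSF+NSM differed from DSF by −0.81 (adjusted p = 0.000313), whereas its difference from NSM was −0.16 with an interval of −0.44 to 0.11 (adjusted p = 0.326). The difference from NSM was called under equal sums (−0.68, adjusted p = 0.00108), where the all-gene median was −0.48. The DSF change was −0.42 (adjusted p = 0.0390). That call was lost without DMSO replicate 1, 2 or 3, DSF replicate 1 or 2 or DSF+NSM replicate 1 or 2, with adjusted p from 0.0527 to 0.173.

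ALDH3B1, at chr11:68008578-68029282 on the plus strand, encodes a membrane-associated enzyme for medium- and long-chain aldehydes. Its counts were 1008, 1130 and 1210 in DMSO, 1343, 1530 and 1460 in DSF, 1810, 1779 and 921 in NSM, and 818, 1023 and 930 in DSF+NSM. The DSF libraries were all above DMSO, and so were NSM replicates 1 and 2, but NSM replicate 3 was below it. DSF gave a log2 fold change of 0.37 (limma adjusted p = 0.263), NSM 0.37 (adjusted p = 0.184) and DSF+NSM −0.27 (adjusted p = 0.314), none of them called. All 3 passed the test when NSM replicate 3 was left out, where DSF gave 0.37 (adjusted p = 0.00792), NSM 0.69 (adjusted p = 8.39e-05) and DSF+NSM −0.27 (adjusted p = 0.0244). Under equal sums the ALDH3B1 change with DSF+NSM was −1.06 (adjusted p = 0.00128), beside the all-gene median of −0.75. The library DSF+NSM replicate 2 (1023) lay inside the DMSO range.

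ALDH4A1, ALDH5A1, ALDH6A1 and ALDH7A1 are mitochondrial enzymes of amino acid breakdown, and the data for them ranged from clear falls to no expression. ALDH4A1, at chr1:18871430-18902724 on the minus strand, completes proline breakdown by making glutamate from pyrroline-5-carboxylate. Its counts were 267, 248 and 291 in DMSO, 247, 247 and 234 in DSF, 99.5, 97.8 and 33.9 in NSM, and 159, 123 and 106 in DSF+NSM. All NSM libraries were lowest, and all DSF+NSM libraries lay between NSM and DSF. NSM changed ALDH4A1 by −1.94 on the log2 scale (SE 0.33, limma adjusted p = 0.000474), from 269 ± 21.9 to 77.1 ± 37.4. This change was −1.43 (adjusted p = 3.62e-06) without NSM replicate 3. The DSF+NSM change was −1.07 (adjusted p = 0.0171), and it lost its call without DMSO replicate 3 (adjusted p = 0.0558) or DSF+NSM replicate 3 (adjusted p = 0.0637). DSF+NSM was above NSM by 0.87 with an adjusted p of 0.0556, which became 0.0211 without NSM replicate 1, 0.0281 without NSM replicate 2 and 0.0838, with a difference of 0.37, without NSM replicate 3. The call of DSF+NSM below DSF (−0.92, adjusted p = 0.0407) was lost when any DMSO or DSF library or DSF+NSM replicate 2 or 3 was left out, with adjusted p from 0.0549 to 0.126.

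ALDH5A1, at chr6:24494867-24537207 on the plus strand, is succinic semialdehyde dehydrogenase, the last enzyme of GABA breakdown. Its counts were 543, 642 and 666 in DMSO, 555, 597 and 569 in DSF, 373, 384 and 427 in NSM, and 307, 232 and 253 in DSF+NSM. DSF overlapped DMSO, NSM was below both and DSF+NSM was below NSM, with no overlap. The log2 fold change was −0.64 with NSM (SE 0.15, limma adjusted p = 0.00316) and −1.23 with DSF+NSM (adjusted p = 2.19e-05). DSF+NSM differed from DSF by −1.13 (adjusted p = 8.23e-05) and from NSM by −0.59 (adjusted p = 0.00770), although the latter was not called in a fit of these groups alone (adjusted p = 0.0899). DSF alone gave −0.10 (adjusted p = 0.678), with an interval of −0.42 to 0.22. ALDH5A1 shares 239 exon bases with the antisense gene GPLD1, and the strand setting of the counting was not stated.

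ALDH6A1, at chr14:74056847-74084492 on the minus strand, is methylmalonate semialdehyde dehydrogenase of valine breakdown. Its counts were 241, 201 and 209 in DMSO, 213, 186 and 209 in DSF, 183, 158 and 196 in NSM, and 145, 157 and 188 in DSF+NSM. All NSM and DSF+NSM libraries were below the DMSO libraries, by small margins. DSF gave a log2 fold change of −0.10 (limma adjusted p = 0.733), NSM −0.28 (adjusted p = 0.178) and DSF+NSM −0.41 (adjusted p = 0.0508), and all 3 missed the threshold. The DSF+NSM change passed the test under 8 of 22 alternatives, among them leaving out NSM replicate 3 (adjusted p = 0.0191) or DSF+NSM replicate 3 (adjusted p = 0.0244). The other alternatives were the median of ratios, the trimmed mean, a pseudocount of 0.1, only the groups compared, library weights and equal sums. Under equal sums ALDH6A1 was −1.19 with DSF+NSM (adjusted p = 8.1e-05) and −0.54 with NSM (adjusted p = 0.0225), beside all-gene medians of −0.75 and −0.25. Library weights also called the NSM change (−0.41, adjusted p = 1.72e-05), where 82.3% of all genes were called. It shares 670 exon bases with the antisense gene BBOF1.

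ALDH7A1, at chr5:126531200-126595362 on the minus strand, oxidises the semialdehyde of lysine breakdown. It was listed at 0 in 9 of 12 libraries and at 3.05 in DMSO replicate 3, 7.03 in NSM replicate 2 and 15.7 in DSF+NSM replicate 1. The highest of these corresponded to 8.95 read equivalents. No group was above 0 in more than 1 library, so no fold change was computed.

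ALDH9A1 and ALDH16A1 stand outside these roles. ALDH9A1, at chr1:165662216-165698562 on the minus strand, oxidises trimethylaminobutyraldehyde on the way to carnitine. Its counts were 667, 702 and 639 in DMSO, 702, 643 and 589 in DSF, 856, 868 and 1119 in NSM, and 527, 522 and 648 in DSF+NSM. All NSM libraries were above all others, with NSM replicate 3 highest, and the remaining groups overlapped. NSM raised ALDH9A1 from 669 ± 31.5 to 948 ± 148, a log2 fold change of 0.49 (SE 0.15, limma adjusted p = 0.0151). Without NSM replicate 3 it was 0.37 (adjusted p = 0.0154), and without DMSO replicate 3 the call was lost at 0.46 (adjusted p = 0.0554). It was also lost under equal sums, at 0.22 (adjusted p = 0.279), where the median of all genes was −0.25, and in a fit of both groups alone (adjusted p = 0.0503). In DSF+NSM the mean was 566 ± 71.5, with a change against DMSO of −0.25 (interval −0.57 to 0.07, adjusted p = 0.175). This change was called under equal sums (−1.03, adjusted p = 0.000130), beside the all-gene median of −0.75, and with library weights (−0.35, adjusted p = 0.000673). Its difference from NSM was −0.74 (adjusted p = 0.00199). ALDH9A1 shares 103 exon bases with a Y RNA gene in the same orientation.

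ALDH16A1, at chr19:49453225-49471050 on the plus strand, encodes a family member that in mammals lacks the catalytic cysteine. Its counts were 801, 839 and 821 in DMSO, 1033, 1033 and 1004 in DSF, 741, 716 and 206 in NSM, and 812, 849 and 568 in DSF+NSM. All DSF libraries were above DMSO and all NSM libraries below it, with NSM replicate 3 far below the others. No ALDH16A1 comparison was called with all libraries and the deposited scaling. DSF gave 0.32 on the log2 scale (SE 0.38, limma adjusted p = 0.600), NSM −0.78 (adjusted p = 0.105) and DSF+NSM −0.16 (adjusted p = 0.737). The NSM change was called without NSM replicate 1 (−1.09, adjusted p = 0.0318) or NSM replicate 2 (−1.07, adjusted p = 0.0429), and was −0.17 (adjusted p = 0.305) without NSM replicate 3. A fit of DSF and DMSO alone called the DSF change of 0.32 (adjusted p = 0.000875), in which the NSM libraries do not enter the spread. Without NSM replicate 3, DSF+NSM was called lower than DSF (−0.48, adjusted p = 0.00346). Under equal sums ALDH16A1 was called lower with NSM (−1.05, adjusted p = 0.0345), with DSF+NSM (−0.95, adjusted p = 0.0397) and in DSF+NSM against DSF (−1.17, adjusted p = 0.0166). The all-gene medians of these comparisons were then −0.25, −0.75 and −0.68. Library weights called it higher with DSF (0.31), lower with NSM (−0.21) and lower in DSF+NSM against DSF (−0.35). Under these weights 60.5%, 82.3% and 67.5% of all genes were called in the same comparisons. ALDH16A1 shares 337 exon bases with a gene model without a symbol in the same orientation and 152 with the antisense gene PIH1D1.

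**Figure D3:**
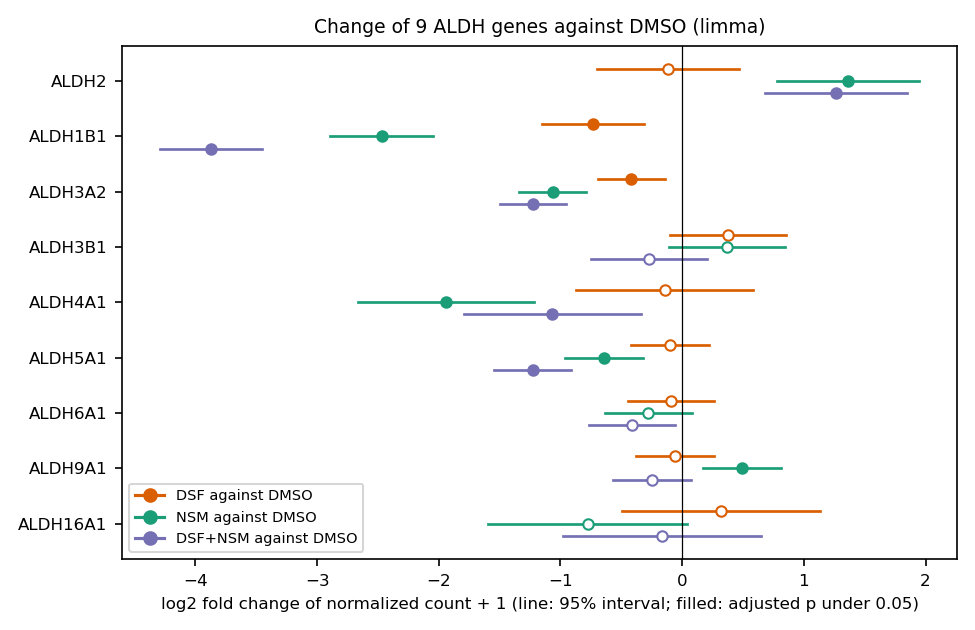
Log2 fold change against DMSO of the 9 tested ALDH genes from limma on log2(normalised count + 1). Points are estimates, lines are 95% intervals and filled points have an adjusted p under 0.05. ALDH1B1 (down to −3.87) and ALDH3A2 have filled points left of 0 in all 3 treatments, and ALDH2 lies right of 0 with NSM and DSF+NSM.

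The combination was also set against each drug and against the sum of their effects. Against DSF, 6 of 9 members were called in DSF+NSM, with ALDH2 higher and 5 lower, where 43.1% of all genes were called (21.7% higher and 21.4% lower). Against NSM, 4 of 9 were called, all lower (ALDH1B1, ALDH3B1, ALDH5A1 and ALDH9A1), where 38.6% of all genes were called (20.3% higher and 18.3% lower). ALDH3B1 differed from DSF by −0.65 (limma adjusted p = 0.0306), a call lost without any of the DSF libraries or DSF+NSM replicate 1 or 3 (adjusted p 0.0547 to 0.104). It differed from NSM by −0.64 (adjusted p = 0.0355), and that call was lost without DMSO replicate 2, DSF replicate 3, NSM replicate 1 or 2 or any DSF+NSM library (adjusted p 0.0502 to 0.123). The difference from NSM was −0.96 (adjusted p = 6.48e-06) without NSM replicate 3.

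The interaction measures, on the log2 scale, how far DSF+NSM departs from both single-drug changes added together. It was called for 2 of 9 members, both negative, where 26.1% of all genes were called and 14% were negative. Without NSM replicate 3 the same 2 members were called, where 45.8% of all genes were. ALDH3B1 had 0.74 as the sum of the single changes and −0.27 with DSF+NSM, an interaction of −1.02 (SE 0.31, limma adjusted p = 0.0295). Without NSM replicate 3 the ALDH3B1 interaction was −1.34 (adjusted p = 6.29e-06), and its call was lost without DMSO replicate 1 or 2, DSF replicate 2 or 3, NSM replicate 1 or 2 or DSF+NSM replicate 1 (adjusted p 0.0590 to 0.0773). ALDH9A1 had 0.43 as the sum and −0.25 with DSF+NSM, an interaction of −0.68 (SE 0.21, adjusted p = 0.0294). Its call was lost without any DMSO library, DSF replicate 1 or 2 or DSF+NSM replicate 1 or 2 (adjusted p 0.0543 to 0.0818), and was kept without NSM replicate 3 (−0.56, adjusted p = 0.0101). ALDH1B1 fell by 3.87 with DSF+NSM where the single changes summed to −3.20, and this interaction of −0.67 was not called (interval −1.26 to −0.07, adjusted p = 0.0906). It was called without NSM replicate 1 (−0.87, adjusted p = 0.0214) and under equal sums (−1.08, adjusted p = 0.00958), where the all-gene median was −0.40. For ALDH2 the interaction was 0.02 with an interval of −0.81 to 0.85. For ALDH4A1 it was 1.02 with an interval of −0.01 to 2.04 (adjusted p = 0.134), and 0.51 (adjusted p = 0.0773) without NSM replicate 3. For ALDH5A1 it was −0.48 (adjusted p = 0.105), and it was called under equal sums (−0.90, adjusted p = 0.00499), where the all-gene median was −0.40.

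**Figure D4:**
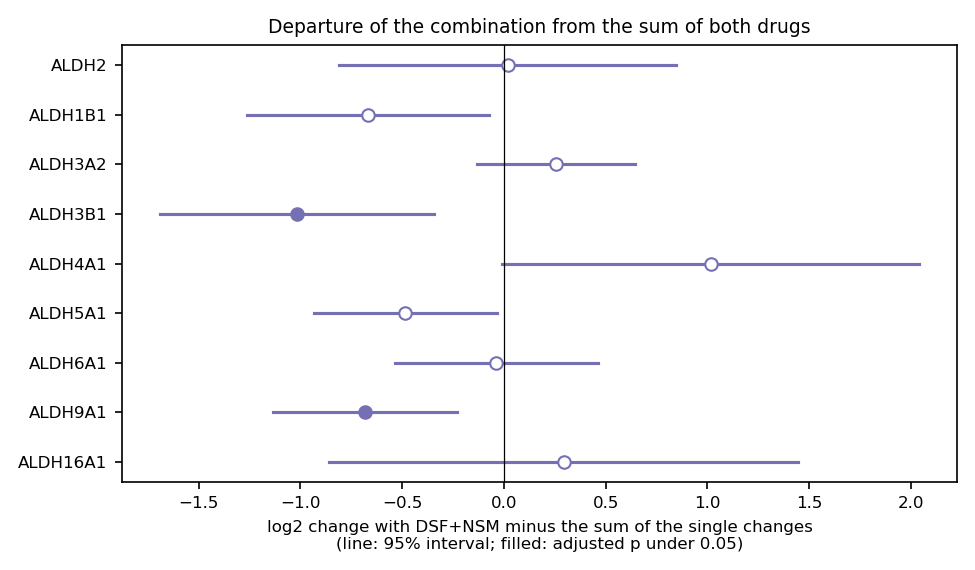
Interaction of DSF and NSM for the 9 tested ALDH genes, as the departure of DSF+NSM from the added single-drug log2 changes. Lines are 95% intervals and filled points have an adjusted p under 0.05, which holds for ALDH3B1 at −1.02 and ALDH9A1 at −0.68.

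The genes whose pattern over the 12 libraries was nearest to a member were found by the root mean square difference of log2 values from the DMSO mean, among 13501 genes. Nearest to ALDH2 were LOC100505771 (0.240), VAMP5 (0.290) and C6orf226 (0.294). For ALDH1B1 these were SLITRK5 (0.338), TMPO-AS1 (0.396) and TMEM177 (0.430), and for ALDH4A1 RDH13 (0.170), PASK (0.181) and SCARB1 (0.191).

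Of 9 other ALDH family genes, 5 were measured and 4 passed the expression filter, and the list median was −0.22 under DSF, −0.06 under NSM and 0.12 under DSF+NSM on the log2 scale. ALDH18A1, which makes pyrroline-5-carboxylate for proline synthesis and so works on the biosynthetic side of the intermediate that ALDH4A1 oxidises, was 457 ± 29.6 per kb in DMSO. Its counts were 1429, 1543 and 1627 in DMSO, 1295, 1282 and 1213 in DSF, 445, 466 and 421 in NSM, and 451, 451 and 419 in DSF+NSM. All treated libraries were lower than DMSO, and the log2 fold change of ALDH18A1 was −1.78 with NSM (limma adjusted p = 3.11e-07) and −1.80 with DSF+NSM (adjusted p = 1.23e-07). ALDH8A1, an enzyme of tryptophan breakdown, was low, at 1.78 to 3.82 in DMSO, 1.10 to 3.50 in DSF, 5.91 to 9.04 in NSM and 22.4 to 45.2 in DSF+NSM. It rose by 3.08 on the log2 scale with DSF+NSM (adjusted p = 0.000110). ALDH8A1 passed the expression filter only through the DSF+NSM libraries, where it is high. The filter thus favoured this rise and its adjusted p. Its rise of 1.17 with NSM (adjusted p = 0.0458) lost the call without any DMSO or NSM library or DSF replicate 2 (adjusted p 0.0532 to 0.148). The retinaldehyde enzyme ALDH1A1, a common marker of immature blood cells, did not pass the filter, with counts of 0 to 8.10. ALDH1A2 (0 to 29.8) and ALDH3A1 (0 to 20.2) were called in no comparison, and ALDH1A3, ALDH1L1, ALDH1L2 and ALDH3B2 were not analysed here.

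Neighbouring enzymes of aldehyde metabolism were counted in the same fit. Among reductases and glyoxalases, which remove aldehydes and carbonyls without ALDH, 3 rose and 1 fell with DSF, 6 rose and 4 fell with NSM, and 6 rose and 5 fell with DSF+NSM, of 17 tested. Their median log2 fold changes were 0.15, −0.13 and 0.17 in these treatments, where those of all tested genes were 0.05, 0.01 and 0.03. The called share of this list was 23.5%, 58.8% and 64.7%, where 17.8%, 49.1% and 52.8% of all tested genes were called. GLO1, the gene of this list called lower with DSF, changed by −0.99, −0.91 and −0.69 on the log2 scale in these treatments (limma adjusted p = 0.00593, 0.00247 and 0.0115). The other genes named from this list were picked by size of change, and all rose. AKR1C1, an aldo-keto reductase, rose by 2.41, 3.71 and 4.89 in the same order (adjusted p = 5.2e-05, 4.92e-07 and 2.28e-08). AKR1C2 rose with NSM (2.37) and DSF+NSM (3.13) and AKR1C3 with NSM (2.15). Both were near the floor in DMSO, at counts of 2.55 to 10.2 for AKR1C2 and 2.93 to 8.11 for AKR1C3. AKR1C3 also rose with DSF (1.31, adjusted p = 0.0223), a call lost without any DSF library or DMSO replicate 2 or 3 (adjusted p 0.0509 to 0.0868). The AKR1C copies are nearly identical, and the split of reads between them is uncertain. DHRS2, a short-chain dehydrogenase/reductase, rose by 6.05 with DSF and 7.74 with DSF+NSM (adjusted p = 1.31e-05 and 2.36e-07). Its counts were 0.94 to 8.31 in DMSO, 226 to 331 in DSF, 2.66 to 10.4 in NSM and 721 to 1139 in DSF+NSM. It thus started near the floor and passed the expression filter through the groups where it is high. The only alcohol dehydrogenase measured, ADH5, was called in no comparison, with log2 fold changes of −0.20, 0.07 and −0.14 in the same order.

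Branched-chain amino acid breakdown, the pathway of ALDH6A1, had 3 genes lower with DSF, 5 higher and 10 lower with NSM, and 1 higher and 9 lower with DSF+NSM, of 23 tested. The list medians were −0.10, −0.32 and −0.36. The called share of the list was 13.0%, 65.2% and 43.5%, where 17.8%, 49.1% and 52.8% of all tested genes were called. HIBCH, the hydrolase of valine breakdown a short way before ALDH6A1, fell by 1.58 on the log2 scale with NSM (limma adjusted p = 2.93e-05) and BCKDHB, a subunit of the branched-chain ketoacid dehydrogenase, by 1.83 (adjusted p = 1.11e-05). The acyl-CoA dehydrogenase ACADSB fell by 1.70 with NSM and 1.20 with DSF+NSM, where IVD (−1.46) and the kinase BCKDK (−1.22) were lower too. The DSF calls were HIBCH (−0.85, adjusted p = 0.00926), ACADSB (−0.73, adjusted p = 0.0291) and ACAT1 (−0.64, adjusted p = 0.0376). HIBCH lost its DSF call without DSF replicate 2 (adjusted p = 0.0517). ACADSB lost it without any DMSO library or DSF replicate 1 or 2 (0.0666 to 0.136), and ACAT1 without those libraries or DSF+NSM replicate 2 (0.0533 to 0.164).

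Of 5 lysine breakdown genes tested, none was called with DSF by limma (1 at an unadjusted p under 0.05). With NSM 1 rose and 1 fell, and with DSF+NSM 1 rose and 2 fell. The list medians for DSF, NSM and DSF+NSM were 0.11, −0.13 and 0.12. The called share was 0%, 40% and 60%, beside 17.8%, 49.1% and 52.8% of all tested genes. PIPOX, pipecolic acid oxidase, rose by 1.39 with NSM (adjusted p = 0.0135), a call lost without DMSO replicate 1 (adjusted p = 0.0597), and by 2.59 with DSF+NSM. PIPOX was low, at counts of 2.65 to 6.80 in DMSO and 28.0 to 34.0 in DSF+NSM. GCDH fell by 1.70 with NSM and 1.06 with DSF+NSM, and DHTKD1 fell by 0.69 with DSF+NSM. Of 4 genes of proline, glutamate and GABA breakdown, 2 rose with DSF, 3 rose and 1 fell with NSM, and 3 rose with DSF+NSM. Their list medians were 0.28, 0.49 and 1.10. The called share was 50%, 100% and 75% of these few genes, beside the same shares of all tested genes. ABAT, the GABA transaminase that supplies the substrate of ALDH5A1, rose by 2.08 with NSM (limma adjusted p = 1.57e-06) and 1.33 with DSF+NSM, the comparisons in which ALDH5A1 fell. OAT, ornithine aminotransferase, fell by 1.68 with NSM and rose by 1.20 with DSF+NSM (adjusted p = 0.000649 and 0.00517). OAT was not called for DSF+NSM under equal sums (0.42, adjusted p = 0.198). The GABA-producing enzyme GAD1 rose by 0.79 with DSF, 0.72 with NSM and 1.00 with DSF+NSM. The DSF calls of GAD1 and ABAT (0.64) were both lost on leaving out DMSO replicate 2, DMSO replicate 3, DSF replicate 1 or DSF replicate 2, and GAD1 also without DSF replicate 3 (adjusted p 0.0512 to 0.0999). The NSM call of GAD1 was lost without DMSO replicate 2 or 3 or NSM replicate 1 (adjusted p 0.0512 to 0.0520), and its DSF+NSM call under equal sums (0.22, adjusted p = 0.364).

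Of 5 genes of carnitine synthesis and fatty aldehyde supply, 1 rose with DSF, 1 rose with NSM, and 1 rose and 1 fell with DSF+NSM. Their list medians were 0.14, 0.28 and 0.03. The called share was 20%, 20% and 40%, where 17.8%, 49.1% and 52.8% of all tested genes were called. SGPL1, the sphingosine phosphate lyase that releases a fatty aldehyde handled by ALDH3A2, rose by 0.89 with DSF (limma adjusted p = 0.00383). TMLHE, which starts carnitine synthesis, rose by 0.89 with NSM (adjusted p = 0.00379), as did ALDH9A1 of the same pathway. The carnitine transporter SLC22A5 fell by 0.90 with DSF+NSM (adjusted p = 0.00223). HACL1 rose by 0.41 with DSF+NSM (adjusted p = 0.0165), but was −0.38 under equal sums (adjusted p = 0.0205) beside the all-gene median of −0.75, and lost its call without DMSO replicate 2 or 3 or DSF+NSM replicate 1 or 2 (adjusted p 0.0535 to 0.0642).

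**Figure D5:**
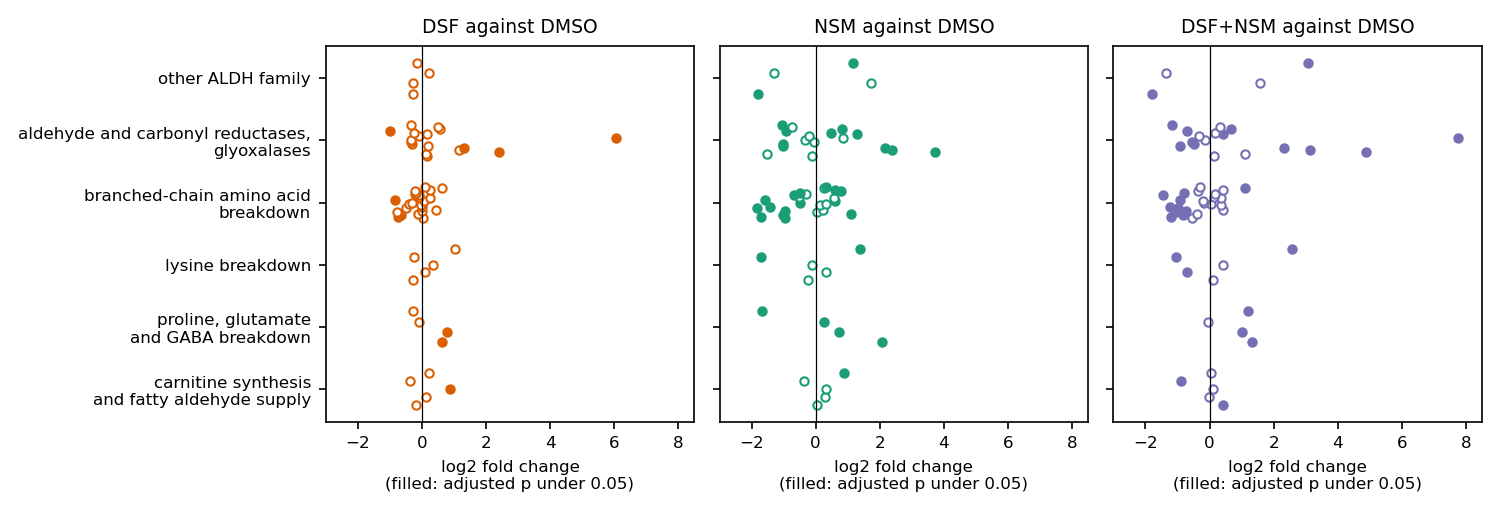
Log2 fold change against DMSO of the tested genes in 6 lists around the ALDH genes, with 1 panel per treatment. Each point is a gene, and filled points have an adjusted p under 0.05 in limma. DHRS2, at counts of only 0.94 to 8.31 in DMSO, is the point farthest right with DSF (6.05) and DSF+NSM (7.74). Branched-chain breakdown genes lie mostly left of 0 with DSF+NSM.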

How the data were processed

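Poly(A) RNA of 12 SHI-1 libraries was analysed. In the deposited tables, 1 for each library, the signal is a gene's normalised count. The file headers name 24 libraries as the basis of the normalisation, of which 12 are used here. The methods name trimmomatic, STAR, Salmon and DESeq2 with GRCh38, whereas the submitters' processing notes name bcl2fastq 2.19, Trimmomatic, Bowtie2, Picard, featureCounts and DESeq2. Between 32.2% and 32.9% of nonzero values per library were whole multiples of the smallest step (tolerance 0.01), so whole reads could not be had and a count model was not fitted. Read equivalents are values divided by that step. Precision is limited by 3 libraries per group.

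Values were transformed as log2(value + 1), so changes of low genes are understated. Genes that reached 10 in 3 or more libraries (13502) were fitted with limma 3.58.1 in R 4.3.3 (trend, robust empirical Bayes, group means of 12 libraries, no block, Benjamini-Hochberg, two-sided, threshold 0.05). Positions, exons, lengths and overlapping genes came from GENCODE 44. The study names NCBI GRCh38 from iGenomes as its reference, so the counted gene models may differ from these. Promoters came from RefSeq. Figures were drawn with matplotlib 3.10.9. The limma step was tested on simulated data. Named are all ALDH genes and, per other list and treatment, up to 3 called genes with the largest change, plus, for ALDH2 and the members with the largest called changes, the 3 genes of nearest pattern. The markers MPO, CD14, ITGAM, CD3E and COL1A1 and the list gene GLO1 were named after their values were seen. The member genes, lists and tests were chosen with earlier results of these data known. Alternatives were other scalings, pseudocounts and filters, library weights, a replicate block, only the groups compared, and leaving out each library.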

Additional observations from a re-analysis of the deposited data

Results flagged for a closer look

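The effect of NSM differed with and without DSF for 2 ALDH genes, by the interaction term of limma with Benjamini-Hochberg adjustment. This is 22.2% of the 9 tested members, where 26.1% of all tested genes were called. ALDH3B1 had an interaction of −1.02 on the log2 scale (adjusted p = 0.0295), with 3 of 3 DSF+NSM libraries below the DSF libraries, while the DSF+NSM and NSM libraries overlapped. ALDH9A1 had an interaction of −0.682 (adjusted p = 0.0294), with 3 of 3 DSF+NSM libraries below the NSM libraries, while the DSF+NSM and DSF libraries overlapped. Each of these calls was lost on leaving out any of 7 of the 12 libraries, with adjusted p up to 0.0773 for ALDH3B1 and 0.0818 for ALDH9A1. ALDH7A1 was listed at 0 in 9 of 12 libraries.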

How the results depend on the processing

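Over 1179 values of the 9 tested ALDH genes under up to 22 alternatives, 1076 kept their side of the threshold, 55 lost a call and 48 gained a call. No called value changed sign, and 20 values that were not called did. For DSF against DMSO, 2 members were called, 4 with library weights or with only the groups compared, 1 with the replicate block, and 0 to 3 when a library was left out (with 0, 2 passed an unadjusted p under 0.05 in limma). For DSF+NSM against DMSO the count of 5 became 8 under equal sums and 8 with library weights, where 67.5% and 74.97% of all genes were called instead of 52.8%. Against NSM the count of 4 became 2 with only the groups compared. The interaction count of 2 became 4 under equal sums, 5 with library weights and 0 to 2 when a library was left out (with 0, 2 to 4 at an unadjusted p under 0.05), where 35.3%, 66.2% and 19.3% to 45.8% of all genes were called instead of 26.1%. The cause of these changes was not tested. For DSF, 60.5% of all genes were called with library weights, 56.0% with only the groups compared and 6.77% to 41.2% when a library was left out, instead of 17.8%. With only the groups compared, it was 19.1% instead of 38.6% for DSF+NSM against NSM. Any pairing by replicate number was weak. Deviations of same-numbered libraries correlated at −0.0644 to 0.278 (median 0.0570, 2 of 18 pairs over 0.1). Those of other-numbered libraries correlated at −0.233 to 0.239 (median −0.0265, 3 of 36 pairs over 0.1). Of 12 libraries, 7 correlated best with their own number. The block also ended the call of ALDH3A2 with DSF (adjusted p = 0.0553) and made that of ALDH4A1 in DSF+NSM against NSM (adjusted p = 0.0397). Of 39 called changes named by size from other lists, which leave out GLO1, HACL1 with DSF+NSM alone changed sign, to −0.38 under equal sums. Of the named markers, ITGAM with DSF+NSM changed sign, to −0.18 under equal sums. Per kb of longest transcript, ALDH3A2, ALDH3B1 and ALDH16A1 moved by more than 1 SD in DMSO. Depth limits ALDH2, ALDH7A1, ALDH8A1 and ALDH1A1 most, with few reads per library. The lowest libraries of ALDH1B1 and ALDH4A1 held 21 and 26.5 read equivalents, near the 20.6 of ALDH2.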
